A study of Caenorhabditis elegans with 6 samples.

Results

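The glutathione S-transferases of *Caenorhabditis elegans* were taken as all genes whose WormBase symbol begins with *gst-* or *gsto-* and that had at least 10 counts over the 6 libraries together. The files held 47 such genes among 46726 gene identifiers, and 44 of them reached the minimum, out of 15690 genes that did so in all. The other 3, *gst-8*, *gst-34* and *gst-37*, had 8, 3 and 4 counts in total.

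Glutathione S-transferases join the tripeptide glutathione to reactive electrophilic compounds, including drugs, toxins and the products of lipid oxidation, which makes these compounds more soluble and easier to export. In worms many of them act in the intestine and hypodermis, and several are induced by the transcription factor SKN-1, the relative of mammalian Nrf, when animals meet oxidants or electrophiles. Most of the *gst-* genes encode cytosolic enzymes of related sequence, and the *gsto-* genes encode enzymes of the omega class. The zeta class, to which *gst-42* and *gst-43* belong, takes part in the breakdown of tyrosine.

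Whole animals of 2 strains were sequenced, wild-type N2 and *mbl-1(tm1563)* mutants, and the latter carry a deletion in the gene of the Muscleblind splicing factor, with 3 biological replicates of each strain. All animals were day 2 adults (day 5 from hatch) kept at 20 °C on HT115 bacteria with the empty RNAi vector, and all had been moved at the L4 stage to plates with 10 µM 5-fluorouracil, which keeps progeny from hatching. The mutants are a single strain with a single allele, so effects of the allele and of other differences in that strain cannot be told apart. The question put to these data was which GST mRNAs differ between the strains.

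The libraries held 17574738 to 20750318 counts on genes, and levels are given as CPM, counts relative to the TMM-scaled size of the library. Where 3 values of a strain are listed, they are in the order of its replicates 1, 2 and 3. The mutated gene was checked first. *mbl-1* had 233, 245 and 228 counts in N2 against 70, 138 and 106 in the mutants, or 12.7 ± 0.720 against 5.75 ± 2.11 CPM (SD, n = 3), a log2 fold change of -1.14 (SE 0.23, adjusted p = 0.0342, edgeR's quasi-likelihood test, Benjamini-Hochberg). Without any one of the N2 libraries or mutant replicate 3 that adjusted p lay between 0.0991 and 0.154. The study states that the deletion removes an exon common to every *mbl-1* isoform, so the mutants can give no reads from that exon. The part of the missing exon in the fall of *mbl-1* counts was not tested. Mutant replicate 1 stood apart from every other library: its chi-square per degree of freedom over genes was 24.6 and 59.6 against the other mutant libraries, which differed from each other by 12.2, and 76.8 to 93.7 against N2. Counts led by this library are therefore also given without it.

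GST mRNAs spanned more than 3 orders of magnitude in day 2 adults, and a pair of genes carried most of the family's signal. Per kb of exon, so that genes of different length can be compared, the highest mean level was that of *gst-1*, a pi-class enzyme on chromosome III, at 391 CPM per kb, above 96.8% of the levels of tested genes. *gst-7* on chromosome II came next at 298 CPM per kb, then *gst-13* at 49.5, *gst-27* at 47.4, *gsto-1* at 37.04 and *gst-10* at 31.4. As CPM, 2 members averaged 100 or more, 12 lay between 10 and 100, 12 between 1 and 10, and 18 below 1. Together *gst-1* and *gst-7* held 59.5% to 65.3% of the family's CPM in each library. The family's exons are short, with a median of 747 bases against 1439 over all tested genes.

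**Figure D1:**
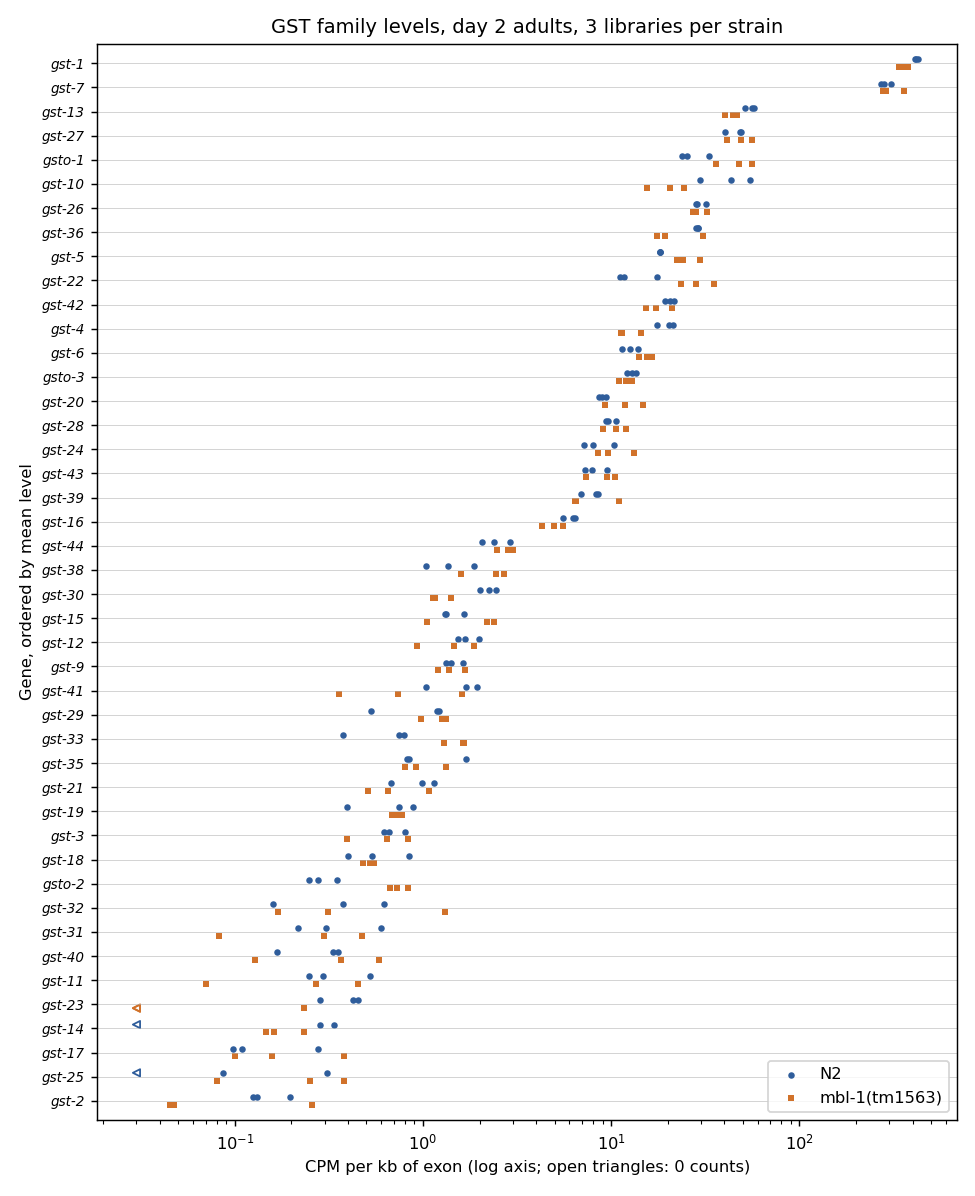
Level of each of the 44 GST genes in each of the 6 libraries, as CPM per kb of exon on a log axis, with genes ordered by mean level, circles for N2 and squares for *mbl-1(tm1563)*; open triangles mark libraries with 0 counts, and those of 1 gene and strain can coincide. *gst-1* and *gst-7* stand well above *gst-13*, the next gene at 49.5 CPM per kb, and the strains mostly lie close together on this scale.

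The summed level of the family overlapped between the strains. It came to 830.5, 843.4 and 824.0 CPM in N2 and to 877.5, 754.7 and 792.1 CPM in the mutants. The mutants included both the highest and the lowest of the 6 totals, with means of 832.6 ± 9.87 and 808.1 ± 62.9 CPM (SD, n = 3). Without *gst-1* and *gst-7* the rest of the family summed to 304.9 ± 10.8 and 307.4 ± 47.0 CPM. The SD of the family total was thus wider among the mutant libraries.

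Of the 44 members, 31 had enough counts to be tested, and 3 of these passed an adjusted p of 0.05 (9.68% of tested members, where 5.46% of all 12335 tested genes passed). *gst-22* rose in *mbl-1(tm1563)* mutants, and *gst-4* and *gst-10* fell. For rises the background over all tested genes was 1.79% and for falls 3.67%. With the study's further limit of a 2-fold change, *gst-22* and *gst-10* remained, against 1.84% of all tested genes, 0.697% higher and 1.14% lower. The share of members past the test rests on 3 genes, and nothing is read from it about the family as a whole. The same fit without mutant replicate 1 passed 3 members in each direction, namely *gst-22*, *gst-33* and *gst-5* higher and *gst-36*, *gst-4* and *gst-13* lower. Over all 12564 genes tested there, 525 passed higher and 929 lower. The scaling of the libraries moved the split: with RLE scaling 1 member passed higher and 1 lower, and with library size alone 1 passed higher and 0 lower (13 members had a log2 fold change below 0 there, at any p). The split over all 12335 tested genes moved too, from 221 higher and 453 lower in the main fit. It was 261 and 396 with RLE scaling and 255 and 298 with library size alone.

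In the main fit the log2 fold changes of the 31 tested members leaned to neither side. They ran from -1.08 to 1.26, with 16 above 0 and 15 below and a median of 0.016. Of all tested genes 44.8% were above 0, and their median was -0.037. Without regard to sign the median of the members was 0.29, beside 0.19 over all tested genes, and 8 members (25.8%) exceeded 0.5 in either direction, beside 16.1% of all tested genes. The members were also measured less precisely, with a median standard error of 0.19 on the log2 scale against 0.14 over all tested genes, and the difference in size was not tested. The 3 libraries of one strain all lay above the 3 of the other in 11 members (35.5%), with mutants above in 5 and below in 6, where all tested genes gave 32.6%, 14.7% and 17.9%. An unadjusted p under 0.05 was reached by 11 members (35.5%), against 23.9% of all tested genes. For the 20 members with a larger p, log2 fold changes lay between -0.74 and 0.64, and the standard errors over all tested members ranged from 0.069 to 0.48.

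**Figure D2:**
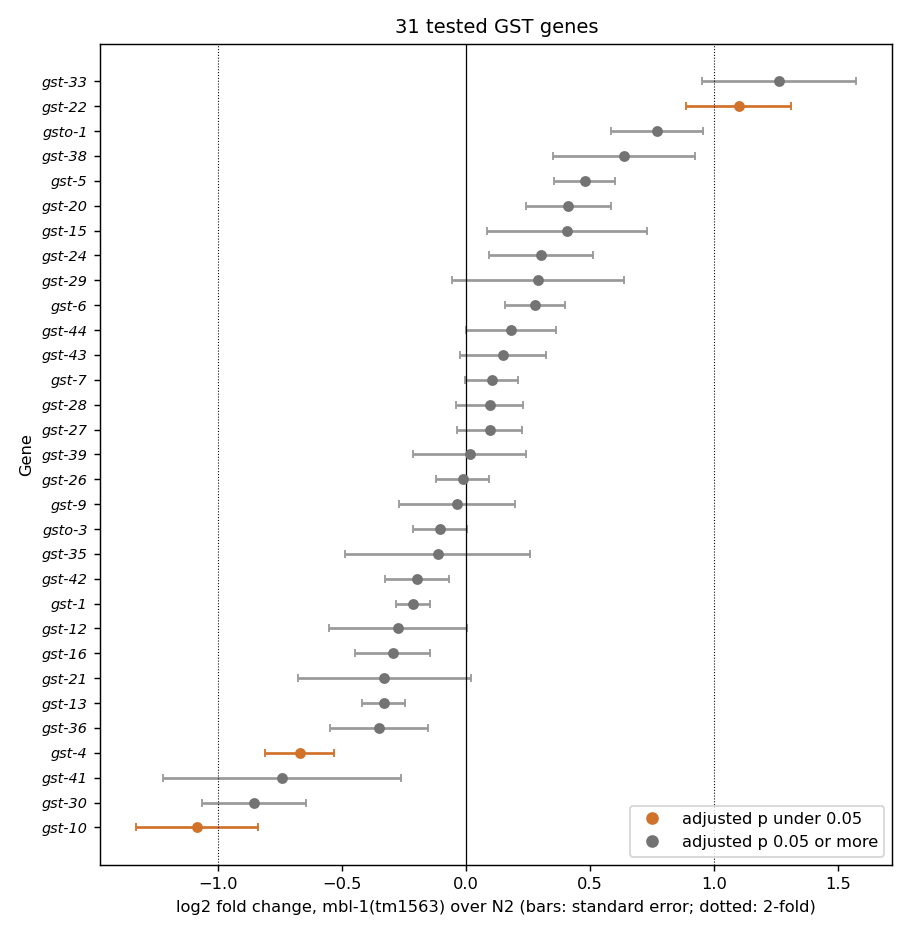
log2 fold change of *mbl-1(tm1563)* mutants over N2 for each of the 31 tested GST genes, with bars for the standard error and dotted lines at a 2-fold change. The 3 genes with an adjusted p under 0.05, *gst-10*, *gst-4* and *gst-22*, are coloured, and 16 of the 31 values lie above 0.

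*gst-4* encodes the enzyme whose promoter drives the standard reporter of SKN-1 activity in worms. It lies on chromosome IV, IV:10142225-10143099 in the WBcel235 assembly, on the plus strand. *gst-4* was measured at 15.6, 12.7 and 14.9 CPM in N2 and at 10.5, 8.24 and 8.35 CPM in the mutants. Every mutant library was below every N2 library. The level fell by 0.67 on the log2 scale (SE 0.14, adjusted p = 0.0346, edgeR's quasi-likelihood test, Benjamini-Hochberg), which is 1.59-fold lower and short of the 2-fold limit. The gene shares 65 bases with *dhs-12* on the same strand, and *dhs-12* had a log2 fold change of -0.17 (adjusted p = 0.193). The adjusted p of *gst-4* stayed below 0.05 in 13 of 14 other settings with all libraries, the exception being library size alone (0.0832), and in 2 of the 6 fits that left out a library. It was above 0.05 without any one of the N2 libraries and without mutant replicate 3 (0.0585 to 0.161).

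*gst-10* encodes an enzyme that conjugates 4-hydroxynonenal, a toxic product of lipid peroxidation. It lies at V:2561690-2564645 on the plus strand, and its exons overlap those of no other counted gene. *gst-10* was measured at 39.5, 21.2 and 31.3 CPM in N2 and at 17.4, 11.2 and 14.7 CPM in the mutants. The groups did not overlap, but the N2 libraries were widely spread and the lowest of them, replicate 2, lay nearest to the highest mutant library. The fall was 2.12-fold, a log2 fold change of -1.08 (SE 0.25, adjusted p = 0.0475, edgeR's quasi-likelihood test, Benjamini-Hochberg), close to the threshold. It was past it in 9 of 14 other settings, and missed it with RLE scaling, library size alone and each other filter on low counts (adjusted p 0.0502 to 0.117). Of the 6 fits that left out a library 2 kept the call, and it was lost without N2 replicate 1 or 3 and without mutant replicate 1 or 3 (adjusted p 0.0827 to 0.172).

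*gst-22*, at V:16231032-16232282 on the minus strand, was the only tested member that rose past the threshold. It was measured at 8.02, 12.7 and 8.52 CPM in N2 and at 25.4, 16.99 and 20.5 CPM in the mutants. All mutant libraries were above all N2 libraries, with replicate 1 highest among the mutants and replicate 2 highest among N2. The level was 2.15-fold higher, a log2 fold change of 1.101 (SE 0.21, adjusted p = 0.0277, edgeR's quasi-likelihood test, Benjamini-Hochberg). The call held without mutant replicate 1 (log2 fold change 0.94) and in 13 of 14 other settings, and was lost without N2 replicate 1, N2 replicate 3 or mutant replicate 3 (adjusted p 0.118 to 0.133). Its annotated overlap with an opposite-strand gene, *F21H7.12*, is 12 bases, and that gene was below 1 CPM in both strains.

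A further 5 members had an adjusted p between 0.05 and 0.1. In each of the 5 the strains did not overlap, where 32.6% of all tested genes did not. Genes chosen by a small p from the same libraries are likely to show this, so it adds no support. The first of the 5 by p, *gsto-1*, encodes an omega-class enzyme of the intestine that protects worms from oxidative stress. *gsto-1* was measured at 20.3, 26.7 and 19.2 CPM in N2 and at 45.3, 29.1 and 38.6 CPM in the mutants. The mutant libraries were spread over a range as wide as the gap between the strain means, and replicate 2 came close to the highest N2 library. Its log2 fold change was 0.77 (SE 0.19, adjusted p = 0.0559, edgeR's quasi-likelihood test, Benjamini-Hochberg). The gene lies at III:7945542-7947018, where 52 bases overlap the opposite-strand gene *kle-2*, whose log2 fold change was 0.057, and the counts did not use strand. *gsto-1* passed in 5 of 14 other settings, among them DESeq2 (adjusted p = 0.00168). Of the 6 fits that left out a library it passed in 1, that without mutant replicate 2 (0.00702, edgeR's quasi-likelihood test). Without mutant replicate 1 its log2 fold change was 0.61 (adjusted p = 0.0668, edgeR's quasi-likelihood test).

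*gst-33* had the largest log2 fold change of the tested members, 1.26 (SE 0.31, adjusted p = 0.0588, edgeR's quasi-likelihood test), at a low level. It was measured at 0.633, 0.299 and 0.592 CPM in N2 and at 1.04, 1.31 and 1.31 CPM in the mutants. All mutant libraries lay above all N2 libraries. *gst-33* met the minimum level of 0.555 CPM in all 3 mutant libraries and in 2 of the N2 libraries, so it was tested because of its level in the mutants, and *gst-29* was in the same position. *gst-21* and *gst-41* were tested because of their level in N2, and the other 27 tested members were above the minimum in all 6 libraries.

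*gst-30*, *gst-5* and *gst-13* made up the rest of this group. *gst-30* was measured at 1.64, 1.79 and 1.48 CPM in N2 and at 0.828, 0.852 and 1.04 CPM in the mutants. *gst-5* was measured at 13.1, 13.2 and 13.1 CPM in N2 and at 21.4, 16.2 and 17.5 CPM in the mutants. *gst-13* was measured at 44.8, 40.4 and 43.8 CPM in N2 and at 36.4, 31.6 and 34.4 CPM in the mutants. *gst-30* and *gst-13* were lower in every mutant library and *gst-5* was higher in every one. Their log2 fold changes were -0.85 (SE 0.21) for *gst-30*, 0.48 (SE 0.12) for *gst-5* and -0.33 (SE 0.087) for *gst-13*, with adjusted p of 0.0586, 0.0652 and 0.0702 from edgeR's quasi-likelihood test, Benjamini-Hochberg. The 12 bases of *gst-5* that overlap *nos-1*, a germline gene on the opposite strand, touch only a small part of its 725 bases of exon.

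**Figure D3:**
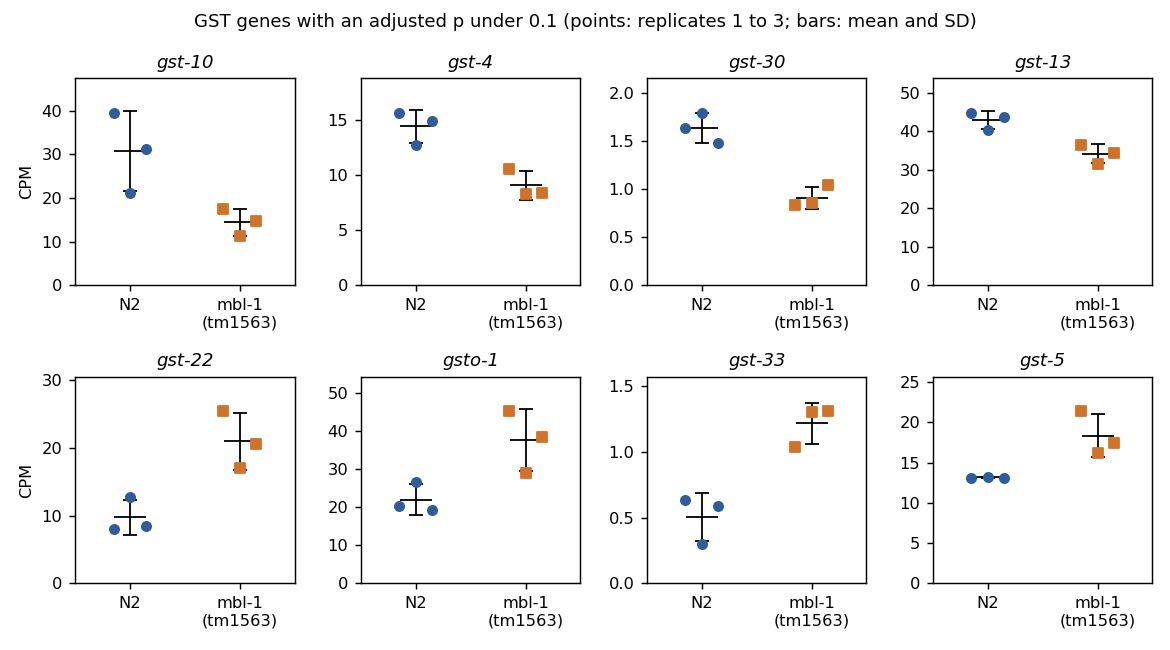
CPM of the 8 GST genes with an adjusted p under 0.1 in each library, on linear axes from 0, with points for replicates 1 to 3 from left to right and bars for the mean and SD of each strain. In all 8 panels the strains do not overlap, as is likely for genes chosen by a small p. The nearest libraries of the strains are 26.7 and 29.1 CPM in *gsto-1* and 21.2 and 17.4 CPM in *gst-10*.

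The exact and likelihood ratio tests of edgeR, and the fit with a correction for exon length, passed all 8 of these genes, 4 higher and 4 lower. These fits also passed more of all genes than the main fit, which had 221 higher and 453 lower of 12335. The exact test passed 428 and 936, the likelihood ratio test 443 and 968, and the length correction 870 and 565 of 12229. In every one of the 20 alternatives the direction of *gst-10*, *gst-4*, *gst-22* and *gsto-1* was the same. What varied was the side of the threshold on which they fell.

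**Figure D4:**
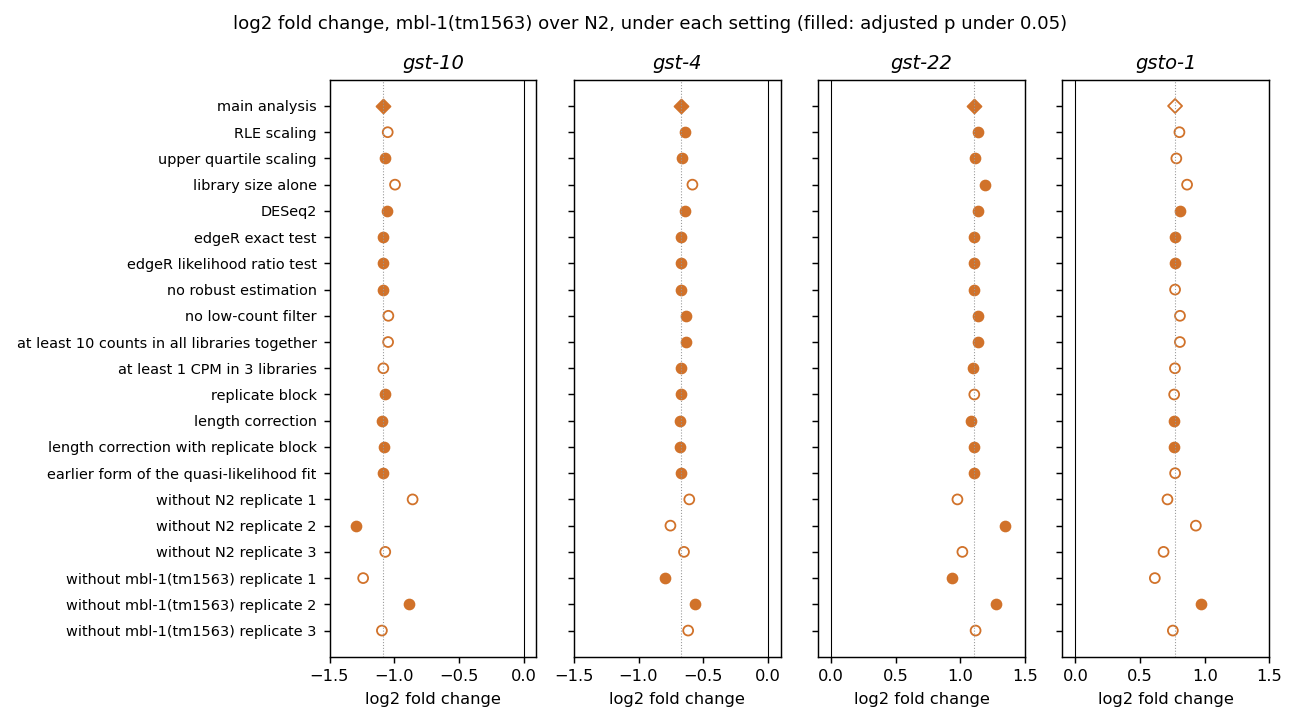
log2 fold change of *gst-10*, *gst-4*, *gst-22* and *gsto-1* under the main analysis (diamonds) and 20 alternatives (circles), filled where the adjusted p was under 0.05, with a dotted line at the main value. The values of *gst-10* run from -1.29 to -0.86 when a library is left out, and those of *gst-22* from 0.94 to 1.34.

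The most abundant genes did not pass the test. *gst-1* was measured at 312.6, 321.4 and 308.2 CPM in N2 and at 254.7, 284.7 and 273.9 CPM in the mutants. The mutants were lower in every library, but the log2 fold change was small, -0.21 (SE 0.069), and missed the threshold (adjusted p = 0.120, edgeR's quasi-likelihood test, Benjamini-Hochberg). *gst-7* was measured at 202.2, 227.8 and 211.0 CPM in N2 and at 267.1, 208.0 and 214.0 CPM in the mutants. Its strains overlapped, with only mutant replicate 1 above all N2 libraries, and its log2 fold change of 0.10 (SE 0.11) turned to -0.018 without that library. *gst-27* was measured at 36.4, 29.95 and 35.8 CPM in N2 and at 41.8, 30.8 and 36.4 CPM in the mutants. It too overlapped between strains, and its log2 fold change of 0.096 (SE 0.13) became -0.016 without mutant replicate 1.

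Of the zeta class, *gst-42*, the maleylacetoacetate isomerase of tyrosine breakdown, averaged 20.8 ± 1.12 CPM in N2 and 18.1 ± 2.95 CPM in the mutants (SD, n = 3). *gst-43* averaged 5.70 ± 0.809 and 6.32 ± 1.09 CPM. Both genes overlapped between strains, and their log2 fold changes were -0.20 (SE 0.13) and 0.15 (SE 0.17). Of the omega class, *gsto-3* averaged 12.0 ± 0.683 CPM in N2 and 11.1 ± 0.923 CPM in the mutants, again with overlap, and a log2 fold change of -0.10 (SE 0.11).

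*gsto-2*, an omega-class gene with few reads, had 4, 6 and 4 counts in N2 and 12, 10 and 13 in the mutants. The mutants were higher in every library, as they were for *gsto-1*. The gene was below the level needed for the test. When every gene with at least 10 counts in all libraries together was fitted, *gsto-2* had a log2 fold change of 1.35 (SE 0.36, adjusted p = 0.0728, edgeR's quasi-likelihood test). None of the 3 *gsto-* genes passed the test in either of these fits.

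The other 12 untested members held 53 counts or fewer over all libraries. Among the 13 that were not tested, the strains did not overlap in *gsto-2* and *gst-23*. *gst-23*, chosen after its values were seen, had 6, 4 and 5 counts in N2 and 0, 0 and 3 in the mutants. The mutants were lower, at a depth where 3 reads make up their whole signal, and the wider fit gave a log2 fold change of -2.14 (SE 0.95, adjusted p = 0.223, edgeR's quasi-likelihood test). The remaining 11 overlapped.

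*gst-6* and *gst-20* had an unadjusted p under 0.05 and a larger adjusted p. *gst-6* averaged 9.70 ± 0.972 CPM in N2 and 11.8 ± 0.949 CPM in the mutants (SD, n = 3), with a log2 fold change of 0.28 (SE 0.12, adjusted p = 0.207, edgeR's quasi-likelihood test). *gst-20* averaged 7.36 ± 0.312 and 9.78 ± 2.20 CPM, with a log2 fold change of 0.41 (SE 0.17, adjusted p = 0.196, edgeR's quasi-likelihood test). In *gst-6* the strains did not overlap, while in *gst-20* mutant replicate 2 lay within the N2 range.

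The family is concentrated on chromosome II, which carries 25 of the 47 genes, and 23 of the members sit in 4 tandem groups, in which neighbouring family genes lie no more than 30000 bases apart. The groups run from *gst-6* to *gst-9* (II:4879891-4893573), from *gst-20* to *gst-18* (II:13608154-13630887), from *gst-26* to *gst-35* (II:15163817-15185389) and from *gst-3* to *gst-4* (IV:10139380-10143099). The groups held genes of very different level, though not every pair of neighbours differed. In the first group *gst-7* averaged 222 CPM, while *gst-8*, which follows it on the chromosome, had 8 counts in all libraries together. Mean levels ran from 0.136 to 8.57 CPM in the second group, from 0.228 to 35.2 CPM in the third and from 0.161 to 11.7 CPM in the fourth. Per kb of exon the neighbours *gst-20* and *gst-24* were close, at 10.5 and 9.48 CPM per kb.

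Of the 14 tested members in the chromosome II groups, 0 passed an adjusted p of 0.05 with the main quasi-likelihood test, with DESeq2 or with edgeR's exact and likelihood ratio tests, and 2 of them, *gst-20* and *gst-6*, had an unadjusted p under 0.05. At the background of 5.46% of all tested genes a count of 0 among so few is not a result about these groups. *gst-20* passed in 1 of the 20 alternatives, the fit without mutant replicate 2 (log2 fold change 0.61, adjusted p = 0.0281, edgeR's quasi-likelihood test). Without mutant replicate 1 its log2 fold change was 0.24 (adjusted p = 0.309, edgeR's quasi-likelihood test). *gst-4* was the one tested member of the chromosome IV group, and it fell. Its neighbours *gst-3* and *gst-2* had at most 11 counts in any library. The other 2 members past the threshold, *gst-10* and *gst-22*, stand alone on chromosome V, as do *gst-33* there and *gst-30* and *gst-13* on chromosome II. In the chromosome II groups the log2 fold changes ran from -0.29 to 0.41, and whether members in groups and members that stand alone differ was not tested.

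**Figure D5:**
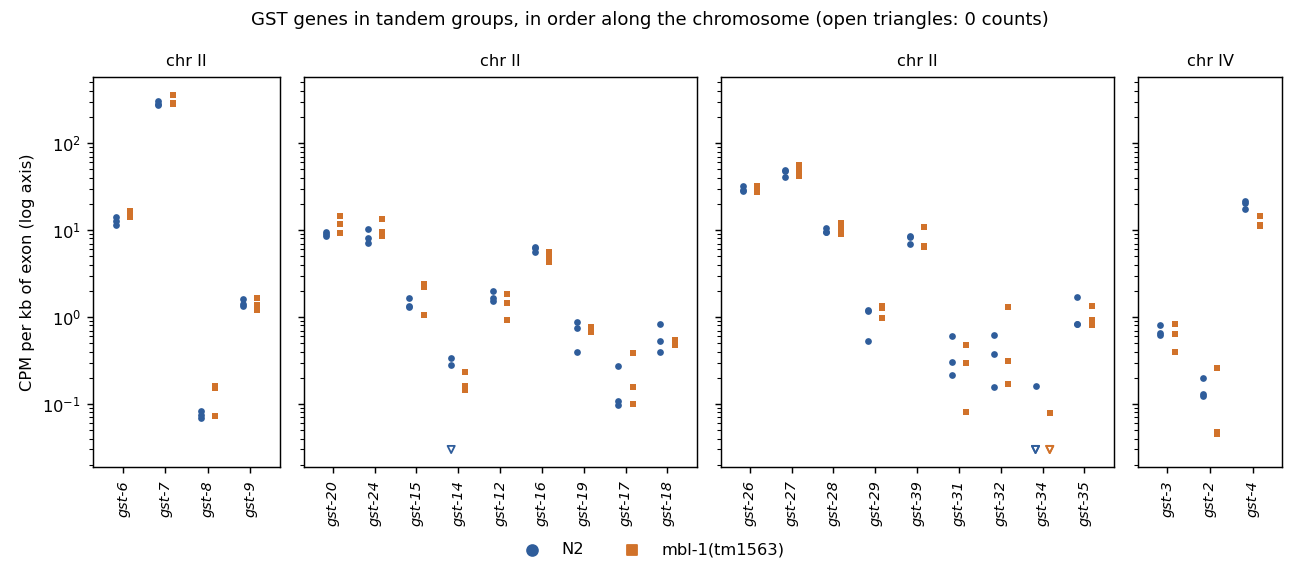
CPM per kb of exon, on a log axis, of every GST gene in the 4 tandem groups, in order along the chromosome, with circles for N2 libraries, squares for *mbl-1(tm1563)* libraries and open triangles for 0 counts. Levels within a group range widely, with *gst-7* beside *gst-8* as the widest step, while some neighbours such as *gst-20* and *gst-24* lie close together.

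Paralogues of similar sequence can share reads, and the deposited counts leave out reads with several alignments. The total kept for such alignments came to 9.74% to 9.87% of all entries in the N2 libraries and 7.34% to 8.08% in the mutants. Whether that total holds each read once or once per alignment was not tested. How many of these reads fell on GST genes was not tested either, so the levels of close copies are uncertain. Which members are most alike in sequence was not tested either. Apart from this, the exons of *gst-17* and *gst-18* overlap by 351 bases on the same strand. Reads that fall there can be ambiguous between these genes, and ambiguous reads are also left out of the counts.

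The mutant libraries also differed from each other across the family. Mutant replicate 1 had the highest level of its strain in 21 of 31 tested members (67.7%), and mutant replicate 2 had the lowest in 23 (74.2%). Over all tested genes the same libraries were highest in 40.9% and lowest in 38.9%. Among the members named above, *gst-22*, *gsto-1*, *gst-5*, *gst-7*, *gst-27*, *gst-4*, *gst-10* and *gst-13* all had their highest mutant value in replicate 1, whether the strain was above or below N2. *gst-1*, *gst-33*, *gst-30* and *gsto-3* had their lowest mutant value in that library. When mutant replicate 2 was left out, the median log2 fold change of the 34 tested members was 0.20, beside -0.0026 over all genes tested there. Of the 31 members tested in the main fit, 18 were then above 0 and 13 below. Of the 34, 4 passed higher (*gst-22*, *gsto-1*, *gst-5* and *gst-20*) and 2 lower (*gst-10* and *gst-4*). Over all 12613 genes tested in that fit, 896 passed higher and 1100 lower, and nothing is read from the count of members.

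Other genes of the glutathione pathway were read from the same fit. Of 46 genes listed for synthesis, redox cycling, peroxidases, the kappa class, glyoxalases, export and regulation, 45 were tested, 0 passed higher and 1 passed lower with edgeR's quasi-likelihood test (2.22%, beside 5.46% of all tested genes), and their median log2 fold change was -0.019. *gcs-1*, the rate-limiting enzyme of glutathione synthesis and like *gst-4* a SKN-1 target, averaged 132.8 ± 4.15 CPM in N2 and 128.0 ± 3.71 CPM in the mutants (SD, n = 3), with a log2 fold change of -0.054 (SE 0.063). The log2 fold change was 0.043 (SE 0.064) for *gss-1*, glutathione synthetase, and 0.030 (SE 0.10) for *gsr-1*, glutathione reductase. For *gcs-1*, *gss-1* and *gsr-1* each difference between strains was smaller than its standard error. *E01A2.1*, also listed for synthesis, and the glutaredoxin gene *glrx-3*, both chosen after their values were seen, were higher in every mutant library, with log2 fold changes of 0.094 (SE 0.064) and 0.26 (SE 0.075), and neither passed (adjusted p 0.395 and 0.0889, edgeR's quasi-likelihood test).

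Among the regulators, *elt-3*, a GATA transcription factor of the hypodermis, was the gene that passed. It was measured at 10.98, 11.7 and 10.5 CPM in N2 and at 6.005, 7.78 and 7.10 CPM in the mutants. All mutant libraries were lower, with a log2 fold change of -0.67 (SE 0.13, adjusted p = 0.0263, edgeR's quasi-likelihood test, Benjamini-Hochberg). *skn-1* averaged 250.4 ± 8.46 CPM in N2 and 214.7 ± 85.5 CPM in the mutants, with a log2 fold change of -0.22 (SE 0.27) and a range from 123.3 to 292.6 CPM among the mutant libraries. For *wdr-23*, which represses SKN-1, the log2 fold change was -0.029 (SE 0.082), for the p38 kinase gene *pmk-1* 0.0086 (SE 0.12), for the intestinal GATA factor *elt-2* -0.17 (SE 0.10) and for the FOXO factor *daf-16* -0.25 (SE 0.17). None of these last 5 genes passed (adjusted p 0.353 to 0.971, edgeR's quasi-likelihood test). *mrp-5*, an exporter of the ABCC type known to carry heme, chosen after its values were seen, lay just outside the threshold at -0.55 (SE 0.13, adjusted p = 0.0502, edgeR's quasi-likelihood test).

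Tissue markers were compared between the same libraries, since in whole animals fewer cells of a type and less RNA per cell cannot be told apart. Of 35 listed markers, 34 were found and 31 tested, of which 4 passed lower and 0 higher with edgeR's quasi-likelihood test (12.9%, beside 3.67% lower and 1.79% higher among all tested genes). The summed level of the 6 intestinal markers was 694 to 710 CPM in N2 and 531 to 639 CPM in the mutants, and 1 of them, *pept-1*, passed lower. The 5 hypodermal markers summed to 1338 to 1377 CPM in N2 and 973 to 1147 CPM in the mutants, with *elt-3* passing. Most of that sum was from the collagen genes *col-119* and *col-19*, and the other collagen genes *dpy-7* and *rol-6*, at low levels, had log2 fold changes above 0 (0.45 and 1.17, neither past the test). The 4 body wall muscle markers summed to 550 to 619 CPM and 382 to 468 CPM, with *myo-3* and *unc-54* passing, and the pharyngeal markers to 48.2 to 55.2 CPM and 34.8 to 39.9 CPM. Germline and oocyte markers, at 2109 to 2201 CPM in N2 and 2122 to 2368 CPM in the mutants, and neuronal markers, at 41.5 to 46.6 and 40.5 to 44.4 CPM, overlapped between strains. Embryonic markers were low in both strains, summing to 3.31 to 4.75 CPM in N2 and 1.99 to 2.95 CPM in the mutants. All 4 had log2 fold changes below 0 (-0.97 to -0.72), and 0 passed the test. The 3 sperm markers found were near 0.

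The intestinal, hypodermal, body wall muscle, pharyngeal and embryonic sums were lower in every mutant library, as were *gst-4* and *gst-10*. By contrast, *gst-22* and *gsto-1* were higher in every one. The part of these tissue levels in the GST values was not tested.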

How the data were processed

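The deposited values are raw counts per gene for each library. The authors prepared stranded poly(A) libraries from whole-animal RNA, used STAR with the WBcel235 transcriptome and then HTSeq ignoring strand, versions of both not given in the sources used here. Multiply aligned and ambiguous reads, kept only as totals, entered neither library sizes nor tests. Symbols, positions and exon lengths came from annotation release 115 of WBcel235, which held 46364 of the 46726 identifiers. No 2 libraries agreed within sampling noise (lowest chi-square per degree of freedom 3.82), so all 6 were used.

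The test used edgeR 4.0.16 under R 4.3.3: filterByExpr (minimum count 10, minimum total 15), TMM scaling, and the robust quasi-likelihood test with strain as the only factor, two-sided, with Benjamini-Hochberg adjustment over 12335 genes. Low counts are measured with wide error. Alternatives covered scaling, filters, DESeq2 1.42.0 and other edgeR tests, gene length, the replicate block and each library left out. The newer form of the quasi-likelihood fit was adopted after seeing the data, with the earlier form as an added alternative. Members and lists were chosen with earlier results of these data known. Named in full were members past the threshold or with a log2 fold change of 1 or more, *gst-4*, *gst-10*, the 5 highest per kb of exon, the *gsto-* genes, *gst-42* and *gst-43*. *gst-5*, *gst-6*, *gst-20* and *gst-30* were added after their values were seen. No sequences were used here.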

Additional observations from a re-analysis of the deposited data

How the results depend on the processing

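The count of members past an adjusted p of 0.05, 1 higher and 2 lower in the main analysis, moved under most alternatives. It was 1 and 1 with RLE scaling, with at least 10 counts in all libraries together and with at least 1 CPM in 3 libraries, 1 and 0 with library size alone, 2 and 1 without a filter on low counts, 3 and 2 with DESeq2, 4 and 4 with edgeR's exact and likelihood ratio tests and with the length correction, 3 and 3 with the length correction and the replicate block, and 0 and 0 at an adjusted p under 0.01. With the 2-fold limit, the main 1 higher and 1 lower became 2 higher with the exact test, the likelihood ratio test and the length correction, and 0 lower with RLE scaling, library size alone, no filter and both other filters. Leaving out each library in turn gave 0 to 4 members higher and 0 to 3 lower, and with the 2-fold limit 0 to 1 in each direction; no member passed without N2 replicate 1, N2 replicate 3 or mutant replicate 3. All-gene counts moved too, from 221 higher and 453 lower to 896 and 1100 without mutant replicate 2, 525 and 929 without mutant replicate 1, 38 and 78 without mutant replicate 3, 45 and 101 without N2 replicate 1, 43 and 111 without N2 replicate 3, 125 and 215 without N2 replicate 2, 117 and 277 under the replicate block, 870 and 565 after length correction (647 and 490 after both), 255 and 298 with library size alone, 436 and 605 with DESeq2, 428 and 936 with the exact test and 443 and 968 with the likelihood ratio test. The all-gene counts were 261 and 396 with RLE scaling, and 301 and 416 of 20908 genes without a filter on low counts. With at least 10 counts in all libraries together they were 247 and 376 of 15690. With at least 1 CPM in 3 libraries they were 216 and 439 of 11258. The cause was not tested. Without mutant replicate 1, *gst-7* and *gst-27* turned sign; with 1 library left out they ran from -0.018 to 0.22 and from -0.016 to 0.25. The log2 fold change of *mbl-1* ran from -1.39 to -0.89 without 1 library and was past the threshold in 2 of those 6 fits. The earlier form of the quasi-likelihood fit, added after seeing the data, passed the same 3 members. Same-numbered libraries of the strains correlated in their deviations at 0.111, 0.00812 and 0.130, so the numbers were not taken as pairs; with the replicate block 0 members passed higher, 0 at 2-fold, and 2 lower, *gst-22* had an adjusted p of 0.0722 and *mbl-1* had a log2 fold change of -1.17 (adjusted p = 0.0543, edgeR's quasi-likelihood test). For the 13 untested members, depth was the limit, with at most 53 counts each over all libraries.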
